A study of Mus musculus with 285 samples.

Results

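A set of 6 genes of the contraction machinery and calcium stores of skeletal muscle were followed across 285 F2 mice, namely Mylpf, Tnnc2, Pvalb, Atp2a1, Casq1 and Casq2. They were taken as every probe annotated to these 6 symbols, which gave 1 probe a gene, 6 of the 23560 probes on the array and 6 of 11622 named genes. All 6 probes had a value on every array, and none lay at the bounds of the deposited scale. The mice, females and males, were second-generation offspring of the strains C57BL/6J and C3H/HeJ, crossed either way round. From 8 weeks of age, after chow of 4% fat, all were fed a Western diet (42% fat, 0.15% cholesterol), and their muscle was taken 12 weeks later, at an age of 20 weeks and 12 hours into a fast. RNA of each muscle, labelled with Cy3, was set on a 2-colour array against a Cy5-labelled pool made from equal portions of RNA of all mice. Which muscle was used, and each animal's sex, genotype and cross, are absent from the labels. The mice therefore form 1 group and differ in the labels by a mouse number between 51 and 362. A few titles also carry the mark (2), which the labels do not explain.

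A contraction starts when calcium leaves the sarcoplasmic reticulum and binds troponin C on the thin filament, and it ends when the calcium is pumped back. In fast fibres, Mylpf encodes the regulatory light chain of myosin, Tnnc2 the fast troponin C, Pvalb the soluble calcium buffer parvalbumin, and Atp2a1 the calcium pump SERCA1. Calsequestrins hold calcium inside the reticulum: Casq1 is the main form of fast fibres, and Casq2 is the form of heart, found also in slow fibres.

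Levels are given as log2 of mouse over pool, so 0 is the pool's level and 1 is 2-fold above it. The table states no log base, and base 10 was assumed. In base 2 the log2 levels below would all be smaller by 1 factor, with correlations unaltered. The sign was taken from the Y-linked gene Eif2s3y, whose mean linear ratio should be near 1 against a pool of all mice and was 0.796 read this way, against 23.2 read as pool over mouse. Some pairs of arrays correlated below -0.3 (2.35% of pairs, lowest r = -0.743), and correlations between genes do not depend on the sign. Since each value is a ratio to a pool of the same tissue, no gene's level can be set against another gene's, and the presence of muscle genes cannot be read from it. In tissue RNA, fewer cells of a type and less RNA per cell cannot be told apart.

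The promoters of both calsequestrins and of the pair of fast genes that varied most closely together, Mylpf and Pvalb, are shown because their levels carry the comparison that follows. Each sequence is the 250 bases before a RefSeq transcription start on GRCm38.p6, read 5′ to 3′ on the gene's strand, with E-boxes (CANNTG, the site of MyoD-type factors) in capitals. The windows are chr1:172219896-172220145 on the minus strand for Casq1, chr3:102086165-102086414 on the plus strand for Casq2, chr7:127211358-127211607 on the plus strand for Mylpf, and chr15:78206401-78206650 on the minus strand for Pvalb.
Casq1: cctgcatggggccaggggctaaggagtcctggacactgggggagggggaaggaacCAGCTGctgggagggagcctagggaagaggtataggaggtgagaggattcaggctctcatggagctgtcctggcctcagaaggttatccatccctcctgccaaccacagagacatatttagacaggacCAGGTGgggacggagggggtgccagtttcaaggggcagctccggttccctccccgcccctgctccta
Casq2: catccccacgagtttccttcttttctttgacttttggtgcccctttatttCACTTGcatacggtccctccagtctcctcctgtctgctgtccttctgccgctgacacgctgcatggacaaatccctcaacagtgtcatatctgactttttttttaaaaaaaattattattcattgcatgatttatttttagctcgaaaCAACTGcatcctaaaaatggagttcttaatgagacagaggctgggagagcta
Mylpf: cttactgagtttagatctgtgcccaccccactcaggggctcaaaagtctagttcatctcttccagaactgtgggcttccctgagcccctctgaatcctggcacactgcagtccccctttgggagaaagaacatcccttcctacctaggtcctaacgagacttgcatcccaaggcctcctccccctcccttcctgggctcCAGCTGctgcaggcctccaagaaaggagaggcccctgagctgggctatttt
Pvalb: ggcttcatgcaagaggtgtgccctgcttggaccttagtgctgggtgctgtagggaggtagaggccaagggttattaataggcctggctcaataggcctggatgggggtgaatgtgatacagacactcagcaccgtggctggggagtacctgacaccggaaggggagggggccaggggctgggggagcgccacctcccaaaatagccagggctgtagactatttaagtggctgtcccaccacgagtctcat

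The motifs were searched on both strands in 1 window a gene, with a further window for a later start of Pvalb. Casq1 and Casq2 each held 2 E-boxes, Tnnc2 held 2, Mylpf and Atp2a1 held 1 each, the Pvalb window above held none, and the later Pvalb window held 1. An E-box stood in 66.2% of 32851 windows of the same length, so its presence does not set these genes apart. No member window held CTA and TAG with any 4 bases between them (3.20% of windows), or TATAAA (12.4% of windows). The former is 1 form of a MEF2-like motif. Other forms, such as those starting with TTA, were not searched or counted over all windows. The sequences above hold ttatttttag in Casq2 and ttattaatag in Pvalb, which start with TTA and end in TAG. The absence of MEF2 sites therefore cannot be read from the search. The guanine and cytosine content was 61.6% in Casq1 and 41.6% in Casq2. These matches describe letters and not bound sites.

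Mylpf had its lowest level of -1.27 in mouse 92, a median of -0.27, and its highest level of 1.09 in mouse 134. Pvalb ran from -1.20 in mouse 92 over a median of -0.27 to 0.73 in mouse 134. Tnnc2 ran from -1.46 in mouse 92 over a median of -0.14 to 1.06 in mouse 134. The same mouse was thus lowest, and the same mouse highest, for all 3 contractile and buffer genes. Most mice lay below the pool for them: 231 of 285 for Mylpf, 234 for Pvalb and 209 for Tnnc2. The mean linear ratio was 0.863 ± 0.214 for Mylpf, 0.860 ± 0.191 for Pvalb and 0.930 ± 0.199 for Tnnc2 (SD, n = 285), each below the 5th to 95th percentile range of all features, 0.939 to 1.16. Against a pool of equal portions of all mice, a mean linear ratio should be near 1. These offsets therefore cannot be read as low levels in the mice, and their source was not tested.

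Atp2a1 ran from -1.43, again in mouse 92, over a median of -0.04 to 1.06 in mouse 314. Unlike the other fast genes it was centred on the pool, with 152 of 285 mice below it and a mean linear ratio of 1.03 ± 0.277 (SD, n = 285). Mouse 134, highest for the 3 genes above, had 0.58 for Atp2a1, which was 265th from the lowest of 285. Mouse 314, highest for the pump, had -0.45 for Mylpf and -0.13 for Pvalb. For Tnnc2, however, mouse 314 had 0.77 and was 284th from the lowest. The pump therefore shared its lowest mouse with the other fast genes and not its highest.

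Casq1 had the widest spread of the 6, from -1.68 in mouse 126 over a median of 0.01 to 1.19 in mouse 68. Casq2 had the narrowest, from -0.50 in mouse 56 over a median of -0.07 to 0.72 in mouse 312. The SD over mice was 0.45 for Casq1, above that of 91.7% of all features, and 0.23 for Casq2, close to the median of 0.21 over all features. At least a 2-fold departure from the pool was reached by 10 mice for Casq1 (2 above, 8 below) and by none for Casq2. The SD was 0.37 for Atp2a1, 0.32 for Mylpf, 0.30 for Pvalb and 0.29 for Tnnc2. In none of the 6 genes did the mice fall into separate clusters, judged by whether 2 fitted normal components lay over 3 SD apart.

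**Figure D1:**
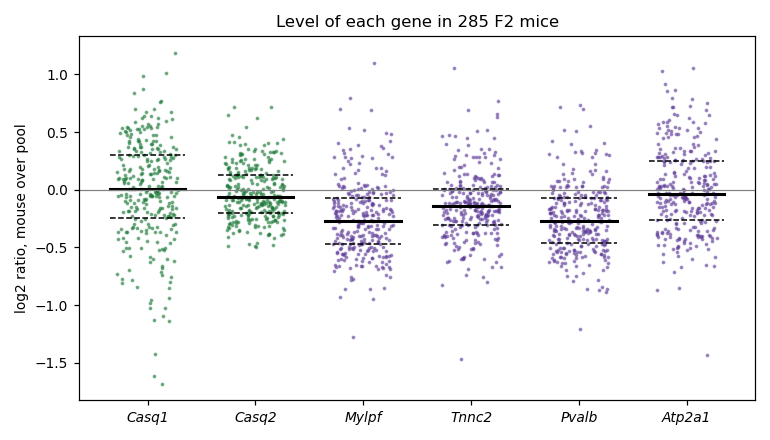
Levels of the 6 genes in the 285 F2 mice, as log2 of mouse over pool on the vertical axis, with 1 point a mouse, a solid line at the median and dashed lines at the quartiles. Casq1 spread from -1.68 to 1.19 and Casq2 from -0.50 to 0.72, while most mice lay below the pool for Mylpf, Pvalb and Tnnc2. The source of that offset from a pool of the same mice was not tested.

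Single mice at the ends show how the calsequestrins stood against the fast genes. Mouse 126, lowest for Casq1 at -1.68, had 0.79 for Mylpf, 0.72 for Pvalb, 0.65 for Tnnc2 and 0.33 for Casq2. Mouse 134 likewise joined low Casq1, at -1.42, to high Casq2, at 0.72, and to the highest Mylpf. Mouse 68, highest for Casq1, had -0.43 for Mylpf and -0.31 for Casq2, but 0.91 for Atp2a1. Mouse 92, lowest for all 4 fast genes, had -0.16 for Casq1 and -0.25 for Casq2, which was 92nd from the lowest of 285 for Casq1. Mouse 312, highest for Casq2, had -0.54 for Pvalb, -0.22 for Tnnc2, -0.11 for Atp2a1 and -0.19 for Mylpf. From the lowest of 285 it was 47th for Pvalb, 102nd for Tnnc2, 114th for Atp2a1 and 170th for Mylpf.

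The 4 fast genes varied together. Mylpf and Pvalb followed each other most closely, with Pearson r = 0.897 and Spearman rho = 0.892 over 285 mice, and Pvalb stood 16th of 21511 features by its r with Mylpf. Per SD of Mylpf, Pvalb rose by 0.27 ± 0.01 on the log2 scale (SE, adjusted p = 2.82e-99 by limma over all features). Mylpf and Tnnc2 had r = 0.635 and rho = 0.586, Tnnc2 and Pvalb r = 0.579 and rho = 0.546, and Tnnc2 and Atp2a1 r = 0.495 and rho = 0.445. The pump was nearest to troponin C among the members, with r = 0.277 with Mylpf and 0.189 with Pvalb, and rho of 0.281 and 0.198. Some of these separate probes shared an identical level. Among mice 171 to 190 the lowest level was -0.779324 for both Mylpf and Pvalb. Among mice 191 to 210 it was -0.505083 for both Tnnc2 and Atp2a1. How such equal levels arose, and their part in the r of these fast pairs, were not tested.

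Beside these 6 pairs, all of which passed in the fits, stands how often any feature passed. An adjusted p under 0.05 was reached by 72.9% of features along Mylpf, 64.9% along Tnnc2, 74.3% along Pvalb and 27.4% along Atp2a1, so a call alone says little and the rank of r says more. Called features with an absolute r of at least 0.3 made up 33.5% along Casq1, 20% along Casq2, 38% along Mylpf, 22% along Tnnc2, 41% along Pvalb and 3.05% along Atp2a1. Atp2a1 stood 174th by its r with Tnnc2, and Pvalb 76th. Tnnc2 stood 333rd by its r with Mylpf. Atp2a1 stood only 5157th along Mylpf and 7225th along Pvalb. Permutation tests over mice (two-sided, 100000 resamples, 15 pairs in all) gave p = 1e-05 for r, the smallest they can give, in 10 of the 15 pairs, among them 4 of the fast pairs. For Mylpf with Atp2a1 the permutation p was 2e-05, and for Pvalb with Atp2a1 it was 0.00125. After the 2 most extreme mice of a pair's first gene were left out, the 6 fast pairs had r from 0.167 to 0.889.

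Casq1 ran against 3 of the fast genes and Casq2 ran with them. With Mylpf, Casq1 had r = -0.427 and rho = -0.340, and Casq2 had r = 0.355 and rho = 0.30. With Pvalb, Casq1 had r = -0.358 and rho = -0.298, and Casq2 had r = 0.309 and rho = 0.267. With Tnnc2, Casq1 had r = -0.230 and rho = -0.187, and Casq2 had r = 0.314 and rho = 0.292. Each of the 3 genes therefore had opposite signs with the 2 calsequestrins. The difference of r, Casq1 minus Casq2, was -0.782 for Mylpf, -0.667 for Pvalb and -0.545 for Tnnc2, each with p = 1e-05, the smallest possible, in a permutation test that swapped the 2 calsequestrins within mice (two-sided, 100000 resamples).

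Atp2a1 stood apart from the other fast genes. It rose with Casq1, with r = 0.199, rho = 0.210 and a permutation p of 0.00075, while with Casq2 r was -0.0618 and rho -0.0651 (permutation p = 0.299). The difference of r, Casq1 minus Casq2, was 0.261 for the pump, with p = 0.0158 by the same permutation test. Casq1 and Casq2 themselves ran against each other, with r = -0.357 and rho = -0.317.

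In log2 per SD of Casq1, Mylpf fell by 0.14 ± 0.02 (SE, adjusted p = 2.50e-13 by limma), Pvalb by 0.11 ± 0.02 (adjusted p = 1.77e-09), Casq2 by 0.08 ± 0.01 (adjusted p = 2.04e-09) and Tnnc2 by 0.07 ± 0.02 (adjusted p = 0.000176). Atp2a1 rose by 0.07 ± 0.02 per SD of Casq1 (adjusted p = 0.00126). All 5 other members thus passed along Casq1, against 69.6% of all features, of which 31.3% rose and 38.3% fell. Along Casq2, Mylpf rose by 0.12 ± 0.02 (adjusted p = 5.96e-09), Pvalb by 0.09 ± 0.02 (adjusted p = 5.21e-07) and Tnnc2 by 0.09 ± 0.02 (adjusted p = 3.08e-07). Atp2a1 did not pass along Casq2 (adjusted p = 0.364), so 4 of 5 members passed, against 63% of all features, with 36.9% rising and 26.1% falling. Such calls were common over all features, and Mylpf stood 1808th from the lowest r along Casq1 and 1380th from the highest along Casq2. With the 2 mice most extreme in the calsequestrin left out, r with Mylpf was -0.411 for Casq1 and 0.327 for Casq2.

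**Figure D2:**
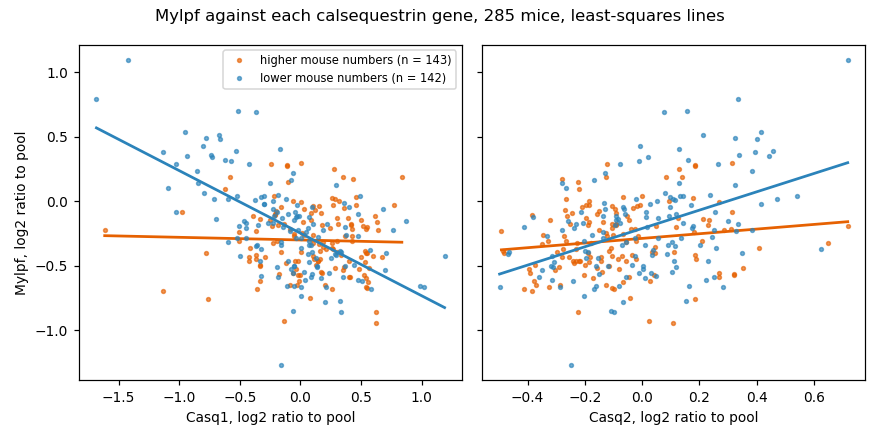
Mylpf against Casq1 and against Casq2, both as log2 of mouse over pool, with 1 point a mouse and least-squares lines for higher-numbered mice (215 and above) and lower-numbered mice. Mylpf falls along Casq1 in lower-numbered mice (r = -0.623) and shows r = -0.0312 in higher-numbered ones.

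The opposition depended on which mice were taken. Among the 143 mice numbered 215 or more, Casq1 had r = -0.0312 with Mylpf, and among the 142 mice with lower numbers it had r = -0.623. For Pvalb r with Casq1 was 0.0634 in higher-numbered and -0.565 in lower-numbered mice, for Tnnc2 0.0371 and -0.380, and for Casq2 -0.0857 and -0.506. In none of these pairs did the higher-numbered mice pass alone (adjusted p from 0.493 to 0.829). The difference of slope itself, higher minus lower numbers, was 0.21 ± 0.03 log2 per SD of Casq1 for Mylpf (SE, adjusted p = 2.03e-07 by limma) and 0.19 ± 0.03 for Pvalb (adjusted p = 6.07e-07). For Tnnc2 it was 0.12 ± 0.03 (adjusted p = 0.00234) and for Casq2 0.09 ± 0.03 (adjusted p = 0.00290). Such a difference along Casq1 was reached by 40.1% of all features, so the members are among many. For Atp2a1 r with Casq1 was 0.199 in higher-numbered and 0.100 in lower-numbered mice, neither of which passed alone (adjusted p = 0.066 and 0.277). The slopes' difference did not pass (adjusted p = 0.364).

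For Casq2, too, the relation differed by mouse number. With Pvalb its r was 0.0348 in higher-numbered and 0.435 in lower-numbered mice, and the difference of slope along Casq2 was -0.13 ± 0.03 (adjusted p = 0.00144, limma). With Mylpf r was 0.152 and 0.452, with a difference of slope of -0.12 ± 0.04 (adjusted p = 0.00452), which did not pass in the fit along Mylpf (adjusted p = 0.135). With Tnnc2 r was 0.173 and 0.392 (adjusted p = 0.0909 for the difference). In higher-numbered mice alone none of the 3 passed (adjusted p from 0.139 to 0.826). Along Casq2, 34% of all features passed this test of difference.

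The fast genes had positive r in either set of mice. Mylpf and Pvalb had r = 0.853 in higher-numbered and 0.928 in lower-numbered mice, and the difference of slope was 0.02 ± 0.02 in the fit along Mylpf (adjusted p = 0.501 by limma, against 31.8% of features passing). In the fit along Pvalb it was -0.07 ± 0.02 for Mylpf and passed (adjusted p = 0.00116), as did 37.6% of features. Tnnc2 and Atp2a1 had r = 0.516 and 0.611, with an adjusted p of 0.920 for the difference, where 14.3% of features passed along Tnnc2. Mylpf and Tnnc2 had r = 0.456 and 0.736. Their difference of slope did not pass in the fit along Mylpf (adjusted p = 0.215) and passed in the fit along Tnnc2, at -0.13 ± 0.03 (adjusted p = 0.00148).

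A pattern shared by a large part of the array moved with these results. The first principal component of all features but the members held 18.9% of the variance, and 30.6% of features had an absolute r of at least 0.5 with it. Its r was -0.600 with Casq1, 0.454 with Casq2, 0.649 with Mylpf, 0.705 with Pvalb, 0.50 with Tnnc2 and -0.0940 with Atp2a1. The signs for Casq1 and Casq2 are thus opposite, as with the 3 fast genes. The component's SD was 0.660 in higher-numbered and 1.02 in lower-numbered mice.

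With the component removed by regression, the fast genes kept their relation and the calsequestrins lost theirs to 3 fast genes. Mylpf and Pvalb then had r = 0.814, Tnnc2 and Atp2a1 0.629, Mylpf and Tnnc2 0.471, and Mylpf and Atp2a1 0.447. Casq1 had r = -0.0620 with Mylpf (adjusted p = 0.433, limma), 0.101 with Tnnc2 (adjusted p = 0.176), 0.115 with Pvalb (adjusted p = 0.117) and -0.119 with Casq2 (adjusted p = 0.103). Casq2 had 0.0880 with Mylpf, 0.113 with Tnnc2 and -0.0187 with Pvalb, none past the threshold (adjusted p from 0.15 to 0.851). Casq1 and Atp2a1 had r = 0.180 (adjusted p = 0.00918). 

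**Figure D3:**
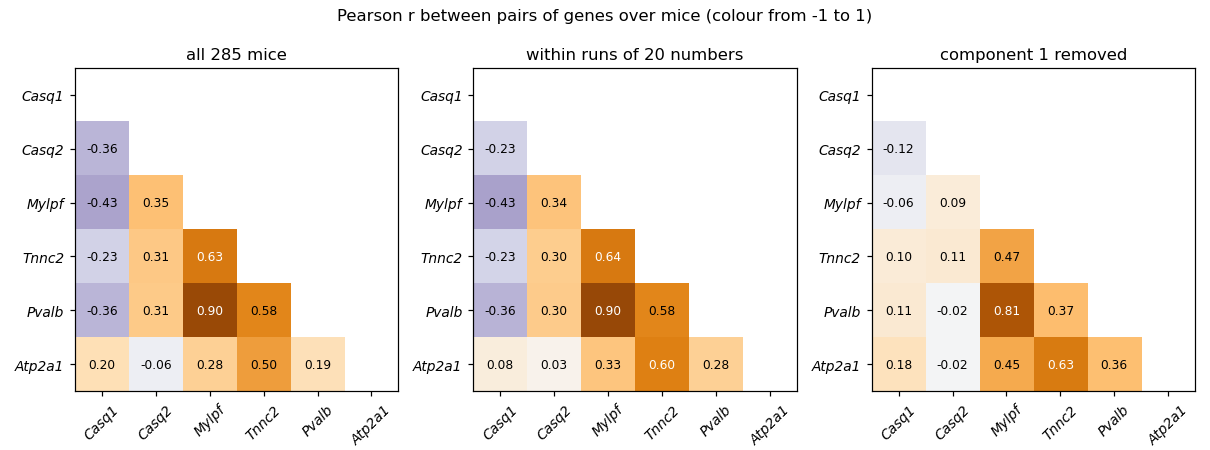
Pearson r of the 15 gene pairs over 285 mice, printed and coloured from -1 to 1, in 3 panels for all mice, within runs of 20 mouse numbers, and with the first array-wide component removed. The 6 fast pairs stay above 0 in each panel, and Casq1 with Mylpf has -0.43 in all mice and -0.06 with the component removed.

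Mouse number also moved with the levels. In runs of 20 consecutive numbers (16 runs of 12 to 20 mice), the run explained 24.0% of the variance of Casq1 (adjusted p = 9.26e-10, limma F test), 23.7% of Casq2 (adjusted p = 1.84e-09) and 20.8% of Atp2a1 (adjusted p = 8.71e-08). It explained 13.4% for Pvalb (adjusted p = 0.000684), 11.4% for Mylpf (adjusted p = 0.00535) and 7.26% for Tnnc2, which did not pass (adjusted p = 0.156). So 5 of 6 members passed, where 84.6% of all features did, and the median feature had 18.6% of its variance between runs. The labels do not say what a number stands for.

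The medians of Casq1 and Casq2 lay on opposite sides of the pool in some runs, though not in all. The median of Casq1 was highest in mice 291 to 310, at 0.39, followed by 0.30 in mice 271 to 290, and it was lowest in mice 91 to 110, at -0.46. Casq2 was highest in mice 111 to 130, at 0.23, and lowest in mice 51 to 70, at -0.25, where Casq1 had 0.28. It had -0.18 in mice 271 to 290 and -0.16 in mice 291 to 310. In mice 331 to 350 both lay below the pool, at -0.11 for Casq1 and -0.14 for Casq2. Atp2a1, like Casq1, was highest in mice 291 to 310, at 0.50, and it was lowest in mice 231 to 250, at -0.27. The run of mice 231 to 250 was also lowest for Mylpf, at -0.50, and Pvalb, at -0.51.

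**Figure D4:**
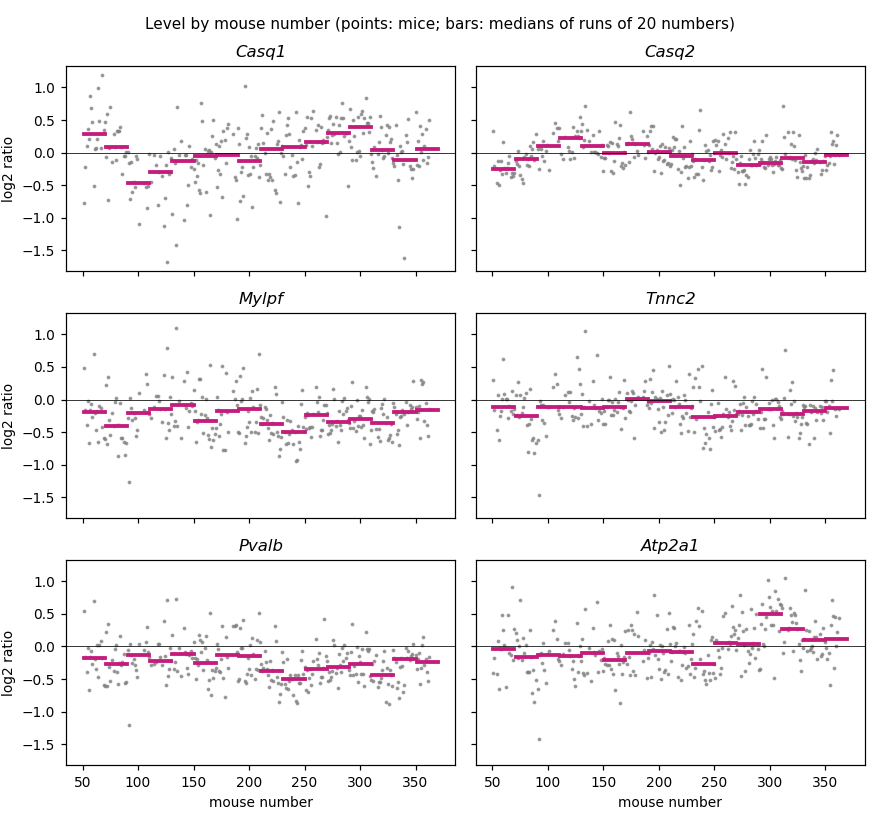
Level of each of the 6 genes (log2 of mouse over pool, vertical axis) by mouse number (horizontal axis), with 1 point a mouse and horizontal bars for the medians of 16 runs of 20 numbers. Casq1 and Atp2a1 are highest in mice 291 to 310, where the Casq2 median is -0.16.

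Within runs, the calsequestrins kept their opposite relation to the 3 fast genes. With the run as a block, r of Casq1 was -0.43 with Mylpf, -0.365 with Pvalb, -0.226 with Tnnc2 and -0.233 with Casq2, and r of Casq2 was 0.338, 0.303 and 0.296 with the same fast genes. All 7 passed (adjusted p from 9.96e-13 to 0.000397, limma). In this setting 14236 of 21511 features passed along Casq1 and 11395 along Casq2, so passing is common. Casq1 and Atp2a1 did not keep theirs, with r = 0.0786 within runs (adjusted p = 0.248). Tnnc2 and Atp2a1 had r = 0.602 and Mylpf and Pvalb 0.903.

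Other genes of the sarcomere and of the calcium store were taken from lists of known members and read beside the calsequestrins. Of 10 measured slow sarcomere genes (13 listed), all 10 rose along Casq2, where 36.9% of all features rose, and the median r was 0.43 against 0.04 over all features. Along Casq1, 9 of the 10 fell, where 38.3% of all features fell, and the median r was -0.25 against -0.02. Myl2, the slow myosin light chain, had r = 0.535 with Casq2 and -0.309 with Casq1. Tnni1, slow troponin I, had 0.50 and -0.231, Tnnc1, slow and cardiac troponin C, 0.491 and -0.297, and Tnnt1, slow troponin T, 0.485 and -0.271. Myoz2, a Z-disc protein of slow fibres, had 0.456 and -0.377, and Myh7, slow myosin heavy chain, 0.408 and -0.266. Tpm3, slow tropomyosin, had 0.366 and -0.165, and Atp2a2, the slow and cardiac calcium pump SERCA2, 0.346 and -0.144.

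The relation of Casq2 to the slow genes held in each setting run, and that of Casq1 was lost within runs. With the first component removed, 9 of 10 slow genes rose along Casq2 and 9 of 10 fell along Casq1 (median r = -0.28). Features called in either direction were then 5324 of 21511 along Casq2 and 7950 along Casq1. Within runs, 8 of 10 rose along Casq2, where 11395 of 21511 features were called in either direction. The 8 slow genes named kept r between 0.258 and 0.661 with Casq2 and stayed past the threshold in every setting. Along Casq1, 3 slow genes rose and 1 fell within runs, where Atp2a2 had r = 0.168, Tpm3 0.163 and Tnni1 0.131 with it. The mean level of the slow list was wide over mice, from -2.84 over a median of -0.11 to 1.03 as log2 of mouse over pool. Mylpf rose with 1 of the 10 slow genes and none fell along it, where 37.3% of features rose and 35.6% fell.

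**Figure D5:**
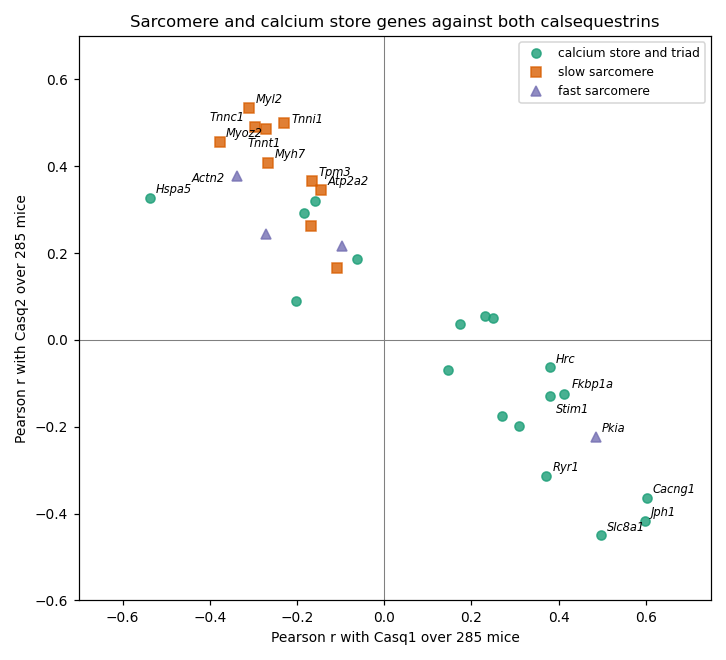
Pearson r with Casq1 (horizontal axis) and with Casq2 (vertical axis) of the measured slow sarcomere, fast sarcomere, and calcium store and triad genes over 285 mice. Slow genes lie at the upper left, with Myl2 at 0.535 for Casq2, and Jph1 and Cacng1 lie at the lower right, at 0.598 and 0.602 for Casq1.

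Of 4 measured genes of the fast sarcomere list outside the members (16 listed), 3 rose and 1 fell along Casq2. Over all features, 36.9% rose and 26.1% fell along it. Along Casq1, 1 of the 4 rose and 2 fell, where 31.3% of all features rose and 38.3% fell. Actn2, the Z-disc cross-linker alpha-actinin 2, is not particular to fast fibres. It had r = -0.337 with Casq1, 0.377 with Casq2 and 0.726 with Mylpf. Pkia, an inhibitor of protein kinase A that is not itself a sarcomere protein, had 0.485 with Casq1, -0.223 with Casq2 and -0.311 with Mylpf. The list turned along Casq1 once the first component was removed: 3 rose and 1 fell with a median r of 0.24 in place of -0.18. In that setting 7950 of 21511 features were called along Casq1. Actn2 then kept 0.704 with Mylpf and had -0.175 with Casq1, and Pkia had 0.00197 with Casq2. The fast myosin heavy chains are among the listed genes not measured here.

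Of 19 measured calcium store and triad genes (31 listed), 13 rose and 5 fell along Casq1, where 31.3% of all features rose and 38.3% fell. Along Casq2, 5 rose and 7 fell, where 36.9% of all features rose and 26.1% fell. The median r was 0.25 with Casq1 and -0.06 with Casq2. Cacng1, a subunit of the voltage sensor of the T-tubule, had r = 0.602 with Casq1 and -0.364 with Casq2. Jph1, which ties the T-tubule to the reticulum, had 0.598 and -0.417, and Slc8a1, a sodium-calcium exchanger, 0.497 and -0.450. Ryr1, the calcium release channel of the reticulum, had 0.372 and -0.314.

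Others of the list rose along Casq1 with r nearer 0 for Casq2, where Stim1 was the only one of these 3 to pass (adjusted p = 0.0444, limma). Fkbp1a, a protein bound to the release channel, had r = 0.412 with Casq1 and -0.125 with Casq2, Stim1, the reticulum's calcium sensor, 0.380 and -0.130, and Hrc, a calcium-binding protein of the reticulum, 0.380 and -0.0634. Hspa5, the chaperone BiP of the endoplasmic reticulum, went the other way, with -0.538 and 0.328. With the first component removed, 11 rose and 2 fell along Casq1, with r = 0.446 for Fkbp1a, 0.367 for Cacng1 and 0.279 for Jph1. Along Casq2, 2 rose and 2 fell. Features called in this setting numbered 7950 of 21511 along Casq1 and 5324 along Casq2. Along Mylpf, 6 of the 19 rose and 10 fell, where 37.3% of all features rose and 35.6% fell, with a median r of -0.12. They ran from Ryr1 at -0.476, Cacng1 at -0.467 and Jph1 at -0.455 to Hspa5 at 0.545 and Cacna1s, the pore of the voltage sensor, at 0.709. Removal of the first component left 5 rising and 3 falling along Mylpf, where 9426 of 21511 features were called.

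Tendon markers moved with Casq1. All 10 measured tendon genes rose along Casq1 with a median r of 0.36, where 31.3% of all features rose. Along Casq2, 8 of 10 fell with a median r of -0.27, where 26.1% of all features fell. Within runs of mouse numbers, 5 of 10 rose along Casq1 (median r = 0.13) and none passed along Casq2 (median r = -0.03). Features called there numbered 14236 of 21511 along Casq1 and 11395 along Casq2. With the first component removed, 7 rose along Casq1 and 3 fell along Casq2, where 7950 and 5324 of 21511 features were called. Their mean log2 level ran from -1.40 to 1.76 over mice, with medians of 0.20 in higher-numbered and -0.51 in lower-numbered mice. Along Mylpf 3 of the 10 fell and the others did not pass, against 35.6% of features falling. With the first component removed 9 of 10 rose along Mylpf (median r = 0.25), where 9426 of 21511 features were called. The part of the tendon markers in the results on the calsequestrins was not tested.

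The genes most like each member in pattern, by r over 285 mice among all named genes, differed between the calsequestrins. Casq1 was followed by Capzb (r = 0.745), which caps actin filaments at the Z-disc, Mlf2 (0.732), Snx3 (0.726) and Tspan3 (0.702), and was opposed by Txn1 (-0.647), thioredoxin, and Rpl27 (-0.635), a ribosomal protein. Casq2 was followed by Homer2 (0.708), a scaffold protein, Cyp2c29 (0.664), Erf (0.631) and Galnt17 (0.609), and was opposed by Wdr3 (-0.568) and Trp53bp2 (-0.554).

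Mylpf and Pvalb shared their 4 nearest genes. These were Pebp1 (r = 0.970 with Mylpf, 0.895 with Pvalb), Lamp1 (0.963 and 0.898), a lysosomal membrane protein, Rpl14 (0.935 and 0.863), a ribosomal protein, and Atp5e (0.930 and 0.881), a subunit of ATP synthase. Both were opposed by Trappc1 (-0.739 and -0.706), and then by Anxa6 (-0.700) for Mylpf and Gopc (-0.683) for Pvalb. Tnnc2 was nearest to Ankrd23 (0.772), Pde4dip (0.770), Idh3b (0.724) and Atp5j (0.711), and farthest from Gopc (-0.498) and Cdk13 (-0.494). Atp2a1 was nearest to Pde4dip (0.584), Wdr48 (0.519), Neb (0.518), the thin filament protein nebulin, and Ldb3 (0.511), a Z-disc protein, and farthest from Cask (-0.506) and Maip1 (-0.464). Pde4dip, a protein that anchors a phosphodiesterase, was thus among the nearest for both Tnnc2 and the pump.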

How the data were processed

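Muscle RNA of 285 F2 mice was measured against a pool of all mice on 2-colour arrays. The authors deposited 1 table of values without a stated unit, taken here, from its values, to be log10 ratios (mouse over pool). The deposited log10 values were bounded at 2 and -2 (471 and 178 values) and had array medians from -0.0222 to 0.0173, so they had been centred. The background correction, the normalization and the array's genome build are not given in the sources used here. The table holds no intensities, so signal over background is unknown and precision rests on how many arrays there were. The SD over the features of an array was 0.175 to 0.605 in log2, and no 2 arrays held identical values.

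A probe was used if 80% or more of the arrays had a value for it (23510 probes). Gaps (0.0972% of values) were filled with the mean of that probe, and values were converted to log2. Entrez identifiers gave current symbols for 12650 probes; 13653 probes carried 1 symbol, 48 several and 9859 none. Probes of a gene were averaged, which gave 11622 named genes and 9890 unnamed probes, 21512 features. For each member, limma 3.58.1 in R 4.3.3 (lmFit, eBayes) was fitted along its level over the other 21511 features, with Benjamini-Hochberg adjusted p under 0.05 as the threshold. The same tool gave the F test over runs of 20 mouse numbers and the difference of slope between mice numbered 215 and above and mice with lower numbers. The limma fits were tested on simulated data with independent features. Those data lack the variation shared across the array, so the test does not cover it. Correlations of the 15 member pairs had two-sided permutation tests with 100000 resamples (scipy 1.17.1), which treat mice as exchangeable. The labels do not say whether mice share litters, and the p-values hold only as far as these mice are independent.

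The members and the gene lists were chosen with earlier results of these data known. Genes named are the members; list genes with an absolute r of at least 0.3 with Casq1 or Casq2, up to 8 a list; and, for each member, the 4 named genes with the highest and the 2 with the lowest r. Other lists are given by counts, medians and the gene of largest absolute r with a member. Promoter sequences came from RefSeq on GRCm38.p6, where all 6 members matched; the array's own coordinates were not used. Alternatives covered the probe summary, array scale, quantile normalization, missing values, array-wide components, runs, slow fibre score, outlying arrays, mice used and, for the SD of each member, log base.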

Additional observations from a re-analysis of the deposited data

Results flagged for a closer look

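The slope between members differed between higher-numbered mice (215 and above, n = 143) and lower-numbered mice (n = 142) in 8 of the 15 member pairs, in the fit along at least 1 gene of the pair, by limma's test of the difference itself. All slopes are log2 per SD of the gene along which the fit was made, as higher minus lower numbers. Along Casq1 the difference was 0.21 ± 0.03 for Mylpf, 0.19 ± 0.03 for Pvalb, 0.12 ± 0.03 for Tnnc2 and 0.0907 ± 0.03 for Casq2 (SE). Along Casq2 it was -0.12 ± 0.04 for Mylpf and -0.13 ± 0.03 for Pvalb and 0.20 ± 0.05 for Casq1. With the fast gene as the regressor, Casq1 had a difference of 0.24 ± 0.05 along Mylpf, 0.19 ± 0.05 along Tnnc2 and 0.28 ± 0.05 along Pvalb, and Casq2 had -0.0884 ± 0.03 along Pvalb. Among the fast genes, Mylpf had -0.13 ± 0.03 along Tnnc2 and -0.0662 ± 0.02 along Pvalb. The first array-wide component had an SD of 0.660 in higher-numbered and 1.02 in lower-numbered mice, and r of Casq1 with it was -0.295 and -0.738. The part of the component in these differences was not tested. Such a difference was reached by 40.1% of all features along Casq1, 34% along Casq2, 31.8% along Mylpf, 14.3% along Tnnc2 and 37.6% along Pvalb, so it is not particular to these genes. The mouse number's meaning is not given in the labels. Single outlying mice were not tested in this group of 285.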

How the results depend on the processing

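All 6 pairs of fast genes kept their direction and their call in each of 13 alternatives, with r of Mylpf and Pvalb from 0.786 to 0.928 and of Tnnc2 and Atp2a1 from 0.456 to 0.629. The identical levels that some of these probes shared were not examined in any alternative. The calsequestrin pairs changed under the removal of array-wide variation and by mouse number, and the cause was not tested. With the first component removed, r of Casq1 was -0.119 with Casq2, -0.0620 with Mylpf, 0.101 with Tnnc2 and 0.115 with Pvalb, and r of Casq2 was 0.0880 with Mylpf, 0.113 with Tnnc2 and -0.0187 with Pvalb. Features called then numbered 7950 along Casq1, 5324 along Casq2, 9426 along Mylpf, 1621 along Tnnc2 and 7339 along Pvalb, against 14976, 13550, 15683, 13965 and 15991 in all mice. With the first 5 components removed, a setting chosen after seeing the data, r of Casq1 was 0.115 with Mylpf, 0.130 with Tnnc2 and 0.241 with Pvalb, and r of Casq2 was 0.0225 with Mylpf, 0.0652 with Tnnc2 and -0.105 with Pvalb. Of these, Casq1 with Pvalb passed the threshold (adjusted p = 0.000447, limma). The counts were then 5910, 4998, 4563, 1127 and 3804 in the same order of genes, and 3280 along Atp2a1 against 5886 in all mice. With the first component removed and runs as a block, also chosen after seeing the data, r of Casq1 was -0.0113 with Casq2, -0.0303 with Mylpf, 0.109 with Tnnc2 and 0.107 with Pvalb, and r of Casq2 was 0.0905, 0.117 and 0.0243 with the 3 fast genes in this order. The counts were 5971, 5977, 5958, 1372, 4908 and 3489 (Atp2a1).

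In higher-numbered mice alone, r of Casq1 was -0.0857 with Casq2, -0.0312 with Mylpf, 0.0371 with Tnnc2, 0.0634 with Pvalb and 0.199 with Atp2a1, and r of Casq2 was 0.152, 0.173 and 0.0348 with Mylpf, Tnnc2 and Pvalb. The counts in these 143 mice were 4782, 3607, 7620, 5856, 7905 and 1968 (Atp2a1), against 15244, 13544, 15656, 13345, 15720 and 2305 in the 142 lower-numbered mice. Casq1 with Atp2a1 fell short of the threshold in higher-numbered mice (adjusted p = 0.066), at r = 0.100 in lower-numbered mice and at 0.0786 within runs. It passed at 0.208 with the first component removed and runs as a block, and at 0.269 with 5 components removed. Within runs, r of Casq1 turned to 0.168 with Atp2a2, 0.163 with Tpm3, 0.131 with Tnni1, 0.110 with Tnnt1, 0.0690 with Tnnc1 and 0.0617 with Myh7. With the component removed as well it was 0.0418, 0.0159, 0.0935, 0.0587, 0.0464 and 0.0297 for these genes and 0.0351 for Myl2. Casq2 turned with Pkia at 0.00197 and with Stim1 at 0.0434 with the component removed, and with Stim1 at 0.177 in higher-numbered mice and 0.0366 with component and runs.

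No paired analysis was possible because all mice form 1 group. The slow sarcomere score was not used as a covariate for the slow genes that make it up. Another background correction, a filter on dim probes and the slide as a block were not run, since the table holds no intensities or slide numbers.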

Other observations

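Along Casq1, 31.3% of all features rose and 38.3% fell, and along Casq2 36.9% rose and 26.1% fell. With the first array-wide component removed, features called numbered 7950 of 21511 along Casq1 and 5324 along Casq2. Of 6 measured oxidative phosphorylation genes (16 listed), 5 fell and 1 rose along Casq1, with a median r of -0.374, and 5 rose and none fell along Casq2, with a median r of 0.380. With the first array-wide component removed, 1 rose along each calsequestrin and the others did not pass. Cox5b, a subunit of cytochrome c oxidase, had r = -0.509 with Casq1 and 0.836 with Mylpf. Of 11 measured glycolysis genes, 6 rose and 2 fell along Casq1, and Gapdh had r = 0.614 with it. Along Casq2, 2 of the glycolysis genes rose and 3 fell. Ckm, the muscle creatine kinase, had r = 0.853 with Mylpf.

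Of 13 measured calcium target genes, 7 rose and 6 fell along Casq1, and 7 rose and 1 fell with the component removed. Phkg1, the catalytic subunit of phosphorylase kinase, which calcium activates, had r = 0.623 with Casq1. Along Casq2, 4 rose and 7 fell, with Mef2d, a transcription factor of muscle, at 0.443.

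Of the markers of other cell types, 3 of 9 lymphocyte genes fell along Casq1, a share near that of all features, with Cd3e at r = -0.543, and 8 of 9 fell with the component removed. Of 5 erythroid genes, 4 fell with Slc4a1 at -0.468, and none passed with the component removed. Of 11 macrophage genes, 5 rose and 3 fell along Casq1, and 1 rose and 3 fell with the component removed. Along Casq2, 2 macrophage genes rose and 7 fell, and with the component removed 2 fell and the others did not pass. The cardiac list, which holds genes of the tissue where Casq2 is the main form, had 3 of 7 rising and 1 falling along Casq2, with a median r of -0.00199 and Nkx2-5 at 0.359, and with the component removed 1 fell and the others did not pass. The part of these cell types in the results was not tested.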
